A study of Mus musculus with 23 samples.

Results

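The comparison set 7 libraries of striatal microglia from mice after abstinence from methamphetamine (Abstinence) against 8 libraries from mice that had taken saline (Saline), 15 of the 23 libraries of the study, chosen by the group given in the labels. All mice were male C57BL/6J, labelled as 9 weeks old, with an intravenous catheter through which they gave themselves saline or methamphetamine at 0.05 mg/kg per infusion in 15 daily sessions of 2 hr. Saline microglia were collected right after the last session. Abstinence mice were collected after 21 more days of forced abstinence in their home cages, so drug history, added age, home cage time and the interval since a session cannot be told apart here. The other group of 8 libraries (Maintenance), methamphetamine mice collected right after the last session, is cited only where a value is set beside the Abstinence one. The labels name the cell type as microglia and the tissue as neuronal. They give no hour of isolation, and do not say that each replicate was a separate animal, so p-values measure the spread between samples.

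Microglia are the resident macrophages of the brain. Molecular chaperones are proteins that help others fold. The heat shock factor HSF1 switches on a heat-inducible set of them when unfolded proteins build up, whereas constitutive members are made at all times. The circadian clock is a loop in which ARNTL (also called BMAL1) and CLOCK activate their own repressors, the period and cryptochrome genes, and the Rev-erb genes Nr1d1 and Nr1d2, whose proteins repress Arntl in turn. Several of these genes swing over the day in most tissues, microglia included.

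Library totals were 55.4 to 84.6 M counts (M, 1e6) in Saline and 71.2 to 94.8 M in Abstinence, with means of 70.8 ± 10.2 and 82.0 ± 9.00 M (SD, n = 8 and 7; two-sided exact permutation p = 0.0451, adjusted p = 0.135 over 3 library measures). Genes with a count averaged 16279 ± 742 and 16277 ± 737. The summed level of 30 homeostatic microglial markers was 114754 to 137409 CPM in Saline and 118264 to 135254 CPM in Abstinence. CPM are counts per 1e6 counts, scaled with TMM factors. Both groups thus carried the defining markers of the labelled cell type, at overlapping levels. Maintenance 6 and 7 had few genes with a count (12459 and 12740), and Maintenance 8 carried choroid plexus and ependymal markers at 44649 CPM in sum. Without these 3 libraries in the fit, 15 genes were called in place of the 3 given below.

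Of 16121 genes tested with edgeR's quasi-likelihood test over all 23 libraries, 3 passed a Benjamini-Hochberg adjusted p under 0.05 (0.0186%). The clock gene Nr1d1 fell, the 1 lower call (0.0062%), and the chaperone genes Hsph1 and Dnaja1 rose (0.0124%). Without adjustment 707 genes had p under 0.05 (4.39%), 347 of them higher (2.15%) and 360 lower (2.23%).

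The upstream windows of some named genes are shown for the motifs through which the clock and the heat shock response are known to act. The choice favours windows with a match, as those of Dnajb1, Bag3, Nr1d2 and Dbp, not printed, held none of the motifs. Sequences are RefSeq's for GRCm38.p6, the 250 bases before the outermost start in its promoter table, in the direction of transcription. Capitals mark a match on either strand. For Dnaja1 (chr4:40722218-40722467, plus strand) and Hspa1a (chr17:34972157-34972406, minus strand) the capitals are a pair of inverted heat shock units. For Per3 (chr4:151044666-151044915, minus strand) they are D-boxes, the motif bound by DBP. The window of Nr1d1 (chr11:98775378-98775627, minus strand) held none of the motifs. Hsph1 is given only as the 30 bases around its match (chr5:149636351-149636380, minus strand), which lie inside the gene span given for it below.
Dnaja1: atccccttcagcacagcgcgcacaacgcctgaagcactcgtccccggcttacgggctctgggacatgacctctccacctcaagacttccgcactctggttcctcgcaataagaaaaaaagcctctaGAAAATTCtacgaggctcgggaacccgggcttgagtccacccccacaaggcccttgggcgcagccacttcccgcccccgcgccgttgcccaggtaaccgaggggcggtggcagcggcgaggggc
Hspa1a: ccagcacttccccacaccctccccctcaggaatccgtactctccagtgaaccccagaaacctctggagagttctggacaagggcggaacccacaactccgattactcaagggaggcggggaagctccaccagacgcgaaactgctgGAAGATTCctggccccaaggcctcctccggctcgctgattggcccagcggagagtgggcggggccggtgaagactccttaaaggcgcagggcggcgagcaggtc
Hsph1: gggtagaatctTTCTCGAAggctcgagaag
Nr1d1: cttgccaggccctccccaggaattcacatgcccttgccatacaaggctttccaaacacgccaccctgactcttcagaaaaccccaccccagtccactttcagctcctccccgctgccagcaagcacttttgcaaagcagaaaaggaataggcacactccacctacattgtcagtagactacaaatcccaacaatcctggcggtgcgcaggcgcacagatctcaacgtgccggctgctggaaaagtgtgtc
Per3: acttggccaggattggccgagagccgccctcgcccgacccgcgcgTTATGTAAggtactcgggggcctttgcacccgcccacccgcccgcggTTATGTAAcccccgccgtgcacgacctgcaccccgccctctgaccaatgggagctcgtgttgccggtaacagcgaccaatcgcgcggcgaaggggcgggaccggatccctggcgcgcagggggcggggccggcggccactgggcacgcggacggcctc

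The first search was for 3 inverted heat shock units in a row, GAA, TTC and GAA with NN between them, on either strand. It matched 1 of 17 heat-inducible genes with a window (Hspe1) and 0.466% of all 32851 windows, and none of the windows printed. The shorter pair, GAANNTTC or TTCNNGAA, lies inside the longer motif and was added after that result was seen. It matched 6 of the 17 (Hspa1a, Hspa1b, Hsph1, Hspb1, Hspe1 and Dnaja1) and 12.84% of all windows. The E-box CACGTG, the site of CLOCK and ARNTL, was in 4 of 10 windows of the Rev-erb, period and PAR bZIP genes (Per1, Tef, Bhlhe41 and Ciart) and in 6.021% of all windows. The D-box, TTANGTAA or TTACNTAA, was in 1 of the 10, Per3, which held 2 copies, and in 2.061% of all windows. A match is a description of letters, and no match says only that these letters are not in this window.

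Among chaperones, Hsph1 and Dnaja1 rose, and the other strongly heat-inducible genes had fold changes of the same sign that did not pass. Hsph1 (chr5:149616843-149636498) encodes the Hsp110 protein, which exchanges the nucleotide of Hsp70. It measured 30.4, 33.5 and 38.3 CPM (lowest, median and highest) in Saline and 34.5, 68.9 and 110 CPM in Abstinence. Of the Abstinence libraries 6 lay above every Saline library, and Abstinence 4 lay within the Saline range. The log2 fold change was 1.00 ± 0.17 (SE; edgeR adjusted p = 0.0196).
Dnaja1 (chr4:40722468-40734965) encodes an Hsp40 co-chaperone that hands substrates to Hsp70. It measured 101, 124 and 135 CPM in Saline and 139, 179 and 236 CPM in Abstinence, with no overlap. The log2 fold change was 0.59 ± 0.11 (edgeR adjusted p = 0.0433). The predicted gene Gm6297 overlaps it, at a mean of 2.66 CPM in Abstinence.
Both calls depended on single libraries. Hsph1 no longer passed without Saline 1, 2, 3, 5 or 6 or Abstinence 1, 2 or 6 (adjusted p up to 0.0844). Dnaja1 failed in 16 of 23 fits that each left out 1 library (edgeR adjusted p up to 0.196, without Abstinence 2). Of these 16 fits, 6 left out a Maintenance library, which enters through the gene filter, the scaling and the estimate of spread.

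The heat-inducible list held 20 tested genes. In it 2 were called higher and 10 had unadjusted p under 0.05 in the higher direction, with none lower. Over all genes tested, 0.0124% were called higher and 2.15% were higher at unadjusted p under 0.05. This list, like the others, was chosen with earlier results of these data known. The median log2 fold change was 0.49, with 18 positive, against 0.01 and 8274 positive over the 16121 genes. Hspa1a, the heat-inducible Hsp70 itself, measured 275, 394 and 583 CPM in Saline and 381, 1127 and 1814 CPM in Abstinence (log2 fold change 1.35 ± 0.25, edgeR adjusted p = 0.0824). All Abstinence libraries but Abstinence 5 exceeded every Saline library. The near-identical copy Hspa1b makes the split of its reads uncertain (1.62 ± 0.37, adjusted p = 0.189).
Dnajb1, the main Hsp40 partner of heat-inducible Hsp70, measured 475, 669 and 836 CPM against 695, 1338 and 2165 CPM (1.08 ± 0.22, adjusted p = 0.142). Bag3, which directs Hsp70 substrates to autophagy, measured 25.3, 31.7 and 37.0 CPM against 33.0, 52.1 and 77.5 CPM (0.84 ± 0.18, adjusted p = 0.142). Abstinence 1, 2 and 6 were the 3 highest for Hspa1a, Hspa1b, Dnajb1 and Bag3, and Abstinence 5 was the lowest for these 4. Abstinence 4 was the lowest for Hsph1 and Dnaja1. Chordc1, Cryab, Hsp90aa1 and Hspd1 had log2 fold changes of 0.31, 0.84, 0.29 and 0.15 with unadjusted p of 0.0164, 0.0294, 0.0420 and 0.0424. Cryab ran from 19.7 CPM in Saline 6 to 151 CPM in Saline 8. These were the Saline libraries with the lowest and highest summed level of oligodendrocyte genes. Hsf1, the factor's own gene, had -0.16 ± 0.11 (adjusted p = 0.999).

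**Figure D1:**
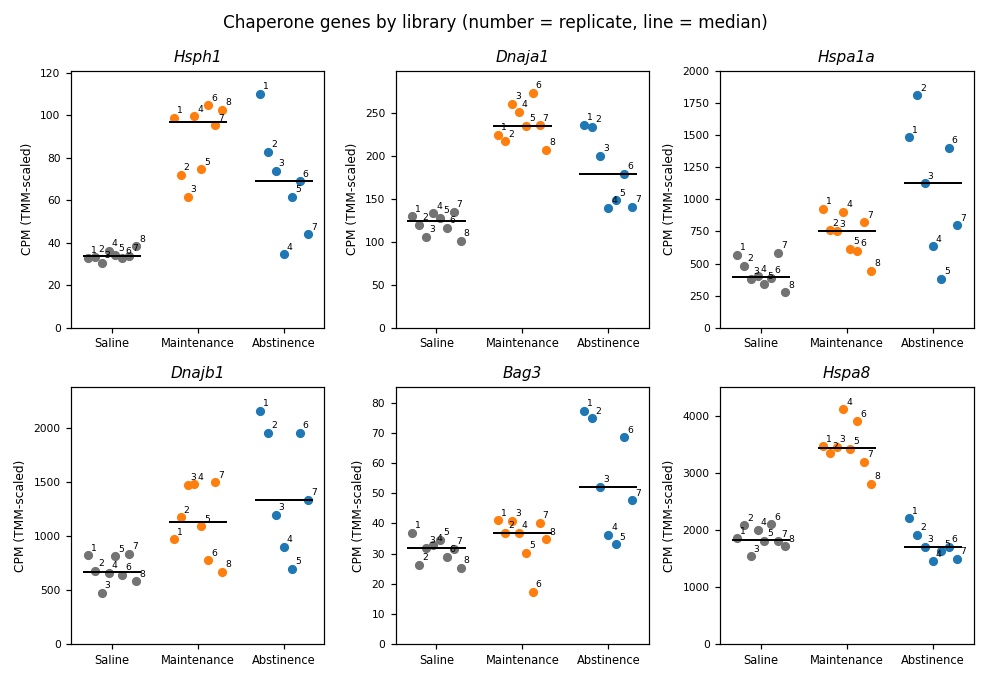
TMM-scaled CPM (y axis, from 0) of 6 chaperone genes in each library, by group; numbers are replicates and lines are medians. Dnaja1 shows no overlap between Saline (101 to 135 CPM) and Abstinence (139 to 236 CPM), and Hspa8 spans 1542 to 2102 CPM in Saline and 1455 to 2211 CPM in Abstinence.

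In the constitutive Hsp70 and Hsp90 machinery edgeR called 0 genes against Saline and limma voom 1, Ppid, an Hsp90-binding immunophilin (0.37, voom adjusted p = 0.0364). The 27 tested genes had a median log2 fold change of -0.03 in edgeR, with 2 higher and 1 lower at unadjusted p under 0.05. Hspa8, the constitutive Hsp70, had -0.11 ± 0.09 against Saline (edgeR adjusted p = 0.999). Against Maintenance, in the same fit, it fell by 1.00 ± 0.09 on the log2 scale (edgeR adjusted p = 2.51e-07). In that test 153 of 16121 genes passed (0.949%), 64 higher (0.397%) and 89 lower (0.552%). Ahsa2, an Hsp90 activator (-1.18), Stip1, which links Hsp70 and Hsp90 (-1.07), the Hsp90 partners Chordc1 (-0.72) and Fkbp4 (-0.51), and Hsp90ab1, the constitutive Hsp90 (-0.53), were also lower than in Maintenance, with edgeR adjusted p from 1.72e-05 for Stip1 to 0.0297 for Hsp90ab1. Of these 6 genes Ahsa2 and Chordc1 belong to the heat-inducible list, where they were the 2 lower calls, and the other 4 to the constitutive list. Without Maintenance 6, 7 and 8, a fit of this contrast chosen after seeing the data, the call of Hsp90ab1 was lost (-0.51, edgeR adjusted p = 0.0685) and the other 5 passed. Other heat-inducible genes did not pass the same test, which gave -0.38 for Hsph1 (adjusted p = 0.371), 0.59 for Hspa1a (0.370), 0.35 for Dnajb1 (0.635) and 0.68 for Bag3 (0.0575). Dnaja1 measured 207 to 274 CPM in Maintenance and 139 to 236 CPM in Abstinence. The median log2 fold change of the heat-inducible list against Saline was 0.78 in Maintenance and 0.49 in Abstinence, so the rise was not particular to Abstinence. Maintenance and Abstinence share the Saline libraries, so their values against Saline are not independent.

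In the clock list, the Rev-erb gene Nr1d1 fell by 1.39 ± 0.21 on the log2 scale (edgeR adjusted p = 0.00676). It lies on chromosome 11 (98767932 to 98775377) and overlaps the tested gene Thra, which had a log2 fold change of 0.51 (adjusted p = 0.999). The strand of the reads is not given, which leaves the split of reads between Nr1d1 and Thra uncertain where they overlap. For Nr1d1, Saline libraries measured 30.9, 41.4 and 55 CPM (lowest, median and highest) and Abstinence libraries 7.78, 15.2 and 22.5 CPM. Every Abstinence library lay below every Saline library, and the call held in all 23 fits that left out 1 library (adjusted p 0.000726 to 0.0332). Against Maintenance it was lower too, by -1.24 (edgeR adjusted p = 0.00195).

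Of the 12 tested Rev-erb, period and PAR bZIP genes, 1 was called lower and 6 had unadjusted p under 0.05, all lower, with a median of -0.61 and 11 negative. Over all genes tested, 2.23% were lower at unadjusted p under 0.05 and 48.7% were negative. The paralogue Nr1d2 measured 50.9, 96.5 and 111 CPM in Saline and 44.4, 66.5 and 73.5 CPM in Abstinence (-0.57 ± 0.14, edgeR adjusted p = 0.218). Abstinence 5 and 7 lay below all Saline libraries, and Saline 7, at 50.9 CPM, sat among the Abstinence values. Dbp, a PAR bZIP activator of clock output, measured 5.76, 12.1 and 18.8 CPM against 1.36, 6.00 and 8.08 CPM (-1.24 ± 0.34, adjusted p = 0.45). Per3, a period gene, measured 10.5, 21.2 and 31.1 CPM against 8.31, 13.7 and 19.0 CPM (-0.66 ± 0.19, adjusted p = 0.496). The repressor Ciart (-0.69) and the Dbp relative Hlf (-0.65) had adjusted p of 0.999, and Nfil3, which opposes Dbp at D-boxes, was the 1 member above 0 (0.37 ± 0.18, adjusted p = 0.999).
Saline 7 was the lowest Saline library for Nr1d1, Nr1d2, Dbp and Per3. Against Maintenance, Nr1d2 (-0.70, edgeR adjusted p = 0.0113), Per3 (-1.10, 0.00373) and Tef (-0.62, 0.0463) were lower as well. Without Maintenance 6, 7 and 8 the call of Tef was lost (-0.47, edgeR adjusted p = 0.174).

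The 14 tested activators, cryptochromes and clock kinases had a median of 0.10, with 1 higher and 1 lower at unadjusted p under 0.05 and 0 called. Arntl, the activator, measured 5.28, 11.1 and 16.6 CPM in Saline and 7.87, 17.9 and 21.1 CPM in Abstinence (0.68 ± 0.54, edgeR adjusted p = 0.999). Cry1, a cryptochrome, had 0.57 (unadjusted p = 0.0471) and the kinase gene Csnk1e -0.28 (unadjusted p = 0.00947). The hour of isolation is not in the labels, and its part in the clock values was not tested.

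**Figure D2:**
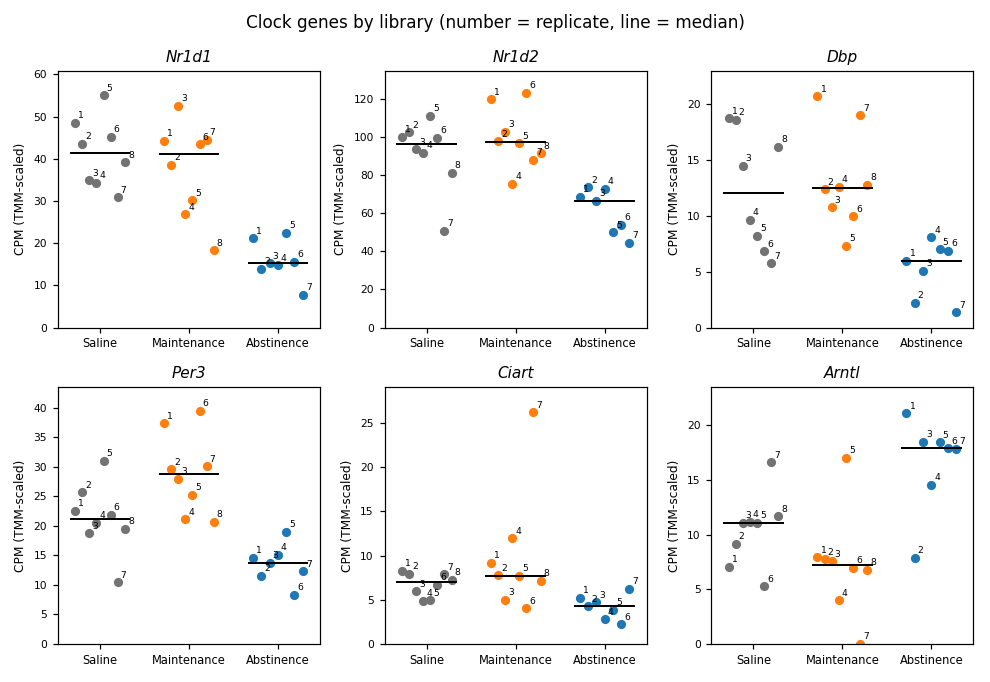
TMM-scaled CPM (y axis, from 0) of 6 clock genes in each library, by group; numbers are replicates and lines are medians. All 7 Abstinence libraries of Nr1d1 (7.78 to 22.5 CPM) lie below the 8 Saline libraries (30.9 to 55 CPM), while the other 5 genes overlap.

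The genes of next smallest p, none of them called by edgeR over 23 libraries, are given by their values. Most were called by DESeq2 and limma voom, each of which called 23 of the 24 genes of smallest p. Tpst2, which sulfates tyrosines of secreted proteins, measured 289, 376 and 432 CPM in Saline and 256, 270 and 299 CPM in Abstinence (-0.42 ± 0.08, edgeR adjusted p = 0.0824). Below all Saline libraries lay 6 of the 7 Abstinence libraries. Arrdc4, an arrestin family member, measured 19.5, 23.2 and 29.3 CPM against 29.2, 36.2 and 44.4 CPM (0.61 ± 0.12, adjusted p = 0.0824). Where only genes with 1 CPM in every library of a group were tested, these 2 and Hspa1a passed (adjusted p = 0.0498 for each), making 6 calls.
The endosomal RNA sensors Tlr7 and Tlr13 had log2 fold changes of -0.42 ± 0.09 and -0.36 ± 0.09 (edgeR adjusted p = 0.189 and 0.247). Tlr7 spanned 239 to 391 CPM in Saline and 186 to 243 CPM in Abstinence. Of 24 tested Toll-like receptor and adaptor genes, 3 were lower and 1 was higher at unadjusted p under 0.05. Fkbp5, a glucocorticoid-induced immunophilin, measured 42.7, 56.6 and 124 CPM in Saline and 26.9, 37.6 and 49.0 CPM in Abstinence (-0.77 ± 0.19, adjusted p = 0.218). The glucocorticoid-responsive list of 20 had a median of 0.00, and Tsc22d3, another such gene, had -0.02. The transcription factor Myc measured 165, 226 and 253 CPM against 118, 142 and 194 CPM (-0.54 ± 0.12, adjusted p = 0.189). Sult1a1, a sulfotransferase (-0.52), Ppp1r21 (-0.68), the centrosome gene Cep152 (-0.55), the kinase inhibitor Pkig (-0.28), Lcmt2 (-0.48) and Adap2 (-0.38) had adjusted p between 0.143 and 0.237. Ankrd10 (0.47), the receptor gene Gprc5b (1.15), the histone methylation cofactor Rbbp5 (0.73), Spock3 (1.36) and Edil3 (1.70) had adjusted p between 0.189 and 0.424. The strand of the reads is not given, and Dbp, Sult1a1, Gprc5b, Lcmt2, Fkbp5 and Edil3 each overlap another tested gene, which leaves the split of their reads uncertain.

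The libraries of the groups did not overlap at all for 8 higher genes (0.0496%) and 24 lower genes (0.149%). Besides Dnaja1 and Nr1d1 these included Clec1a (0.89), Cdc37l1 (0.41), Pkig, Lcmt2, Fam110a (-0.30) and Ube2v1 (-0.32).

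Among markers of microglial identity and activation, edgeR over 23 libraries called 0 genes. In the homeostatic list of 30, the median was -0.03, with 3 lower at unadjusted p under 0.05 (Golm1, Itgb5 and Selplg). Golm1 passed as lower with limma voom (-0.22, adjusted p = 0.0209) and with edgeR in the 17 libraries of a second deposited table (-0.24, adjusted p = 0.0324). Tmem119 measured 3322, 4289 and 5084 CPM in Saline and 3377, 3757 and 4052 CPM in Abstinence (-0.15 ± 0.09, edgeR adjusted p = 0.999). The purinergic receptor gene P2ry12 had 0.02 ± 0.08, the fractalkine receptor gene Cx3cr1 0.03 ± 0.08 and the CSF1 receptor gene Csf1r 0.02 ± 0.10. The 28 disease-associated genes, which mark microglia around amyloid and damaged myelin, had a median of 0.00, with 14 positive and 14 negative. Their log2 fold changes ran from -0.65 to 2.06, with 2 higher and 0 lower at unadjusted p under 0.05. Trem2 (-0.04), Apoe (-0.15) and Cst7 (-0.04) were among the 28. Apoe was lower than in Maintenance by -0.63 (edgeR adjusted p = 0.00759). The 29 cytokine genes had a median of -0.01, with Il1b at 0.08, Tnf at -0.20 and Ccl2 at 0.36 (unadjusted p = 0.0336).

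Several lists had small fold changes mostly below 0. All 13 mitochondrially encoded genes were negative (median -0.18), as were 8 of 8 NADPH oxidase genes (-0.11), 31 of 36 proteasome genes (-0.05), 66 of 77 cytosolic ribosomal protein genes (-0.08), 29 of 35 interferon-stimulated genes (-0.15) and 28 of 36 nuclear complex I genes (-0.07). Over all genes tested 48.7% were negative. None of these genes was called, and at unadjusted p under 0.05 there were 1, 1, 3, 3, 2 and 0 lower in that order. Other lists lay mostly above 0, also without a call. Positive were 17 of 21 cholesterol synthesis genes (median 0.14) and 18 of 23 proliferation genes (0.24). Members of such lists vary together in a library, so these counts are not counts of independent genes. Mitochondrially encoded genes took 0.996 ± 0.191% of counts in Saline and 0.889 ± 0.0840% in Abstinence (exact permutation p = 0.209).

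**Figure D3:**
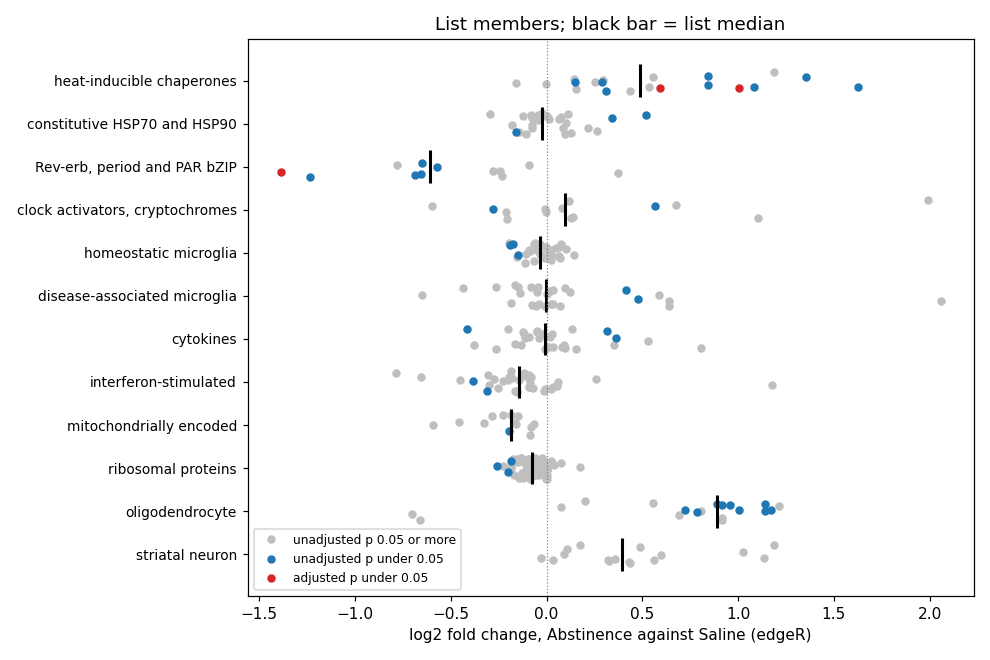
Log2 fold change (x axis, Abstinence against Saline) of each tested member of 12 lists; red passed the adjusted test, blue had unadjusted p under 0.05, and black bars are list medians. The heat-inducible list has its median at 0.49, the Rev-erb, period and PAR bZIP list at -0.61, the oligodendrocyte list at 0.89 and the homeostatic list at -0.03.

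Oligodendrocyte genes had mostly positive fold changes that did not pass edgeR's test over 23 libraries, while limma voom on the same libraries called 4. Of 19, 17 were positive, 9 had unadjusted p under 0.05 in edgeR, and the median was 0.89. At that threshold 2.15% of all genes tested were higher and 2.23% lower. Ugt8a, an enzyme of myelin lipid synthesis, measured 4.54, 8.44 and 44.6 CPM in Saline and 19.8, 34 and 40.3 CPM in Abstinence (1.17 ± 0.42, edgeR adjusted p = 0.788). Mbp and Mobp, which encode myelin proteins, had -0.66 and -0.70. The summed list was 4739 to 9943 CPM in Saline, highest in Saline 8, and 5728 to 9587 CPM in Abstinence, with medians of 5653 and 7872 CPM. In bulk samples, a change in the number of cells of a type and a change in RNA per cell cannot be told apart.
Markers of 16 striatal neuron genes had a median of 0.39, with 15 positive and summed levels of 25.7 to 144 CPM in Saline and 45.2 to 149 CPM in Abstinence. Oligodendrocyte precursor genes had a median of 0.92 (8 of 9 positive) and choroid plexus and ependymal genes 1.08 (7 of 7 positive). Monocyte genes had -0.72 (11 of 12 negative). EdgeR over 23 libraries called 0 genes of these lists. Neutrophil genes had a median of -1.76, with 12 of 13 negative and 6 lower at unadjusted p under 0.05. Their summed level was 313 to 1287 CPM in Saline, highest in Saline 6, and 260 to 450 CPM in Abstinence, where 4 of the list's genes were at 0 in every library. With the oligodendrocyte and neutrophil levels of each library as covariates, edgeR called 0 genes (564 at unadjusted p under 0.05), and Nr1d1, Hsph1 and Dnaja1 had log2 fold changes of -1.37, 1.00 and 0.67 (edgeR adjusted p = 0.665 for each). The fold changes of these 3 genes were close to those without covariates, with SE of 0.28, 0.23 and 0.15. Mean log2 CPM of the neutrophil list was 2.67 in Saline and 0.38 in Abstinence, and of the oligodendrocyte list 5.23 and 6.13. The covariates thus moved with the group, and this fit cannot separate the 2. The part of these cells in the results was not otherwise tested.

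**Figure D4:**
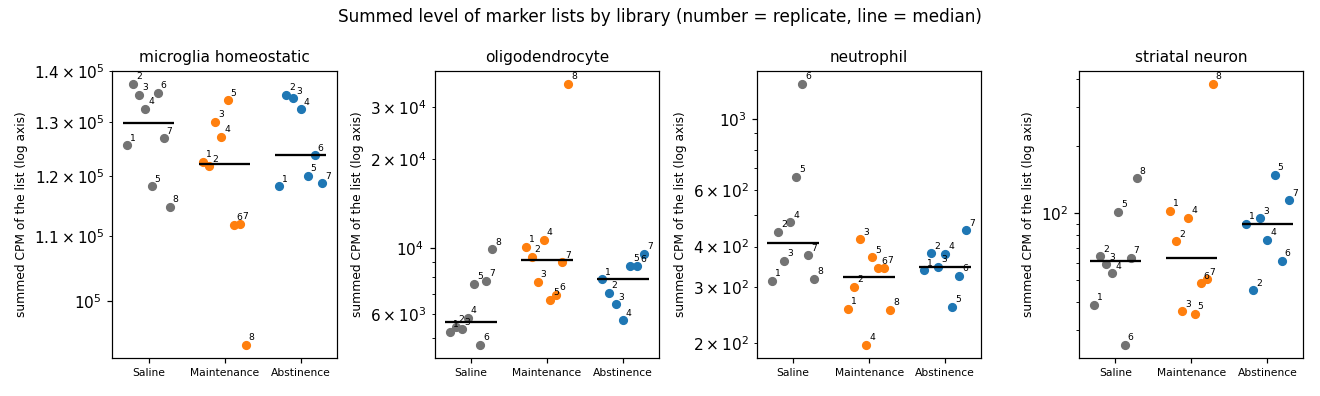
Summed CPM (log axis) of 4 marker lists in each library, by group; numbers are replicates and lines are medians. Saline 8 is the highest Saline library for oligodendrocyte and striatal neuron lists and Saline 6 for the neutrophil list, while the homeostatic microglia list spans 114754 to 137409 CPM in Saline and 118264 to 135254 CPM in Abstinence.

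The number of calls depended on the test and on the libraries. DESeq2 called 36 genes (0.223%), 16 higher (0.0992%) and 20 lower (0.124%). They included Nr1d1, Hsph1 and Dnaja1, and all of the 24 genes taken by smallest p but Adap2. Among them were 6 of the 20 heat-inducible genes and 2 of the 12 Rev-erb, period and PAR bZIP genes. Some of its smallest p-values belong to genes near 0, such as Trpc6, which was at 0 CPM in all 7 Abstinence libraries and at most 2.11 CPM in Saline.
Limma voom with library quality weights called 184 genes (1.14%), 98 higher (0.608%) and 86 lower (0.533%), 29 of them shared with DESeq2. Counted per list after these calls were seen, they held 6 heat-inducible genes, all higher (Hsph1, Dnaja1, Hspa1a, Hspa1b, Dnajb1 and Bag3), 4 Rev-erb, period and PAR bZIP genes, all lower (Nr1d1, Nr1d2, Dbp and Per3), Tlr7 and Tlr13, and 4 oligodendrocyte genes, all higher (Ugt8a, Aspa, Ermn and Mag). The oligodendrocyte list holds 19 genes and is not a full set for these cells, so other calls may belong to them.

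A second deposited table holds 17 of the 23 libraries, all 7 of Abstinence but 5 of Saline (without 5, 6 and 8) and 5 of Maintenance (without 6, 7 and 8). In these, edgeR called 56 of 16396 genes (0.342%), 46 higher (0.281%) and 10 lower (0.061%). Nr1d1 (-1.29, edgeR adjusted p = 0.0122), Hsph1 (1.02, 0.0329), Tpst2 (-0.43, 0.0122), Myc (-0.57, 0.0324) and Tlr7 (-0.34, 0.0498) passed, as did Nrros, which is needed for TGF-beta activation by microglia (-0.40, 0.0122). Dnaja1 did not (0.54, 0.0574). Counted per list after the calls were seen, the 46 held 5 of the 19 listed oligodendrocyte genes, with Ugt8a at 1.55 (0.0122) and Aspa at 1.36 (0.0224). The list is not a full set for these cells, so the count of 5 is a minimum. EdgeR called 15 genes without Saline 8 alone, the Saline library with the highest summed oligodendrocyte level, and 15 without Maintenance 6, 7 and 8 alone. DESeq2 on the 17 libraries called 229 genes (1.4%), 178 higher (1.09%) and 51 lower (0.311%).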

How the data were processed

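Microglial RNA of the 23 libraries was made into sequencing libraries with a low-input kit, per the labels' protocols. The submitters' processing notes name mm10 (GRCm38), STAR 2.7.10a, StringTie 2.1.5, DESeq2 1.38.3, Trim Galore 0.6.7 and cutadapt 1.18. Order and settings are not given in the sources used here, nor is the strand. Both tables the authors deposited hold raw counts per gene. The second, named normalized, equals the first in 17 libraries (0 of 611592 values differed) and served only to choose an alternative set of libraries.

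Members and gene lists were chosen with earlier results of these data known. Genes were kept with filterByExpr (minimum count 10, minimum total 15; 16121 of 35976). The model (edgeR 4.0.16, TMM factors, glmQLFit with robust = TRUE) took all 23 libraries with the group alone as a term. A call is an adjusted p under 0.05 (Benjamini-Hochberg), and SE values are the log2 fold change over the square root of F. Alternatives used DESeq2 1.42.0 and limma 3.58.1 (voom) in R 4.3.3. Exact permutation tests are two-sided. Named were called genes, the 12 of smallest p per direction (mean log2 CPM of at least 2, medians in the direction of the fit, no predicted symbol), up to 4 members per list, up to 12 per direction called by DESeq2 or in the 17 libraries, 6 per direction without overlap, and a fixed set of marker, chaperone and clock genes. Further list members are named by their calls. On simulated data (15071 genes) the test recovered 35.8%, 71.6% and 92.4% of genes changed 1.5-fold, 2-fold and 4-fold, and 1.48% of calls were false. Changed genes were taken only from those with average log2 CPM of at least 2. Each gene was drawn independently, without variation that genes of a library share, so these shares need not hold for the real libraries. No library pair of the groups differed by less than sampling noise (chi-square per gene at least 31.2).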

Additional observations from a re-analysis of the deposited data

Results flagged for a closer look

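Of 54 sets of values compared library by library, 4 held a library far from the rest of its group, where chance gives about 1 in 20. Edil3, an extracellular matrix gene, measured 31.3 CPM in Saline 8, and the next Saline library had 13.7 CPM. Tlr7 measured 391 CPM in Saline 6, with the next at 295 CPM. Fkbp5 measured 124 CPM in Saline 6, with the next at 62.7 CPM. Abstinence 5 had 14727 genes with a count, and the next lowest Abstinence library had 16277.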

How the results depend on the processing

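Nr1d1, Hsph1 and Dnaja1 kept their direction under all alternatives run. Genes called, 3 in all (2 higher, 1 lower), numbered 6 (4 and 2) with 1 CPM in every library of a group, 36 (16 and 20) with DESeq2, 184 (98 and 86) with voom, 5 (2 and 3) with Abstinence and Saline alone, 56 (46 and 10) in the 17 libraries, 229 (178 and 51) there with DESeq2, and 15 (6 and 9) without Maintenance 6, 7 and 8. Upper-quartile factors gave 1 higher. Alternatives added after seeing the data were DESeq2 without a filter, with 90 (53 and 37), and an oligodendrocyte covariate, with 0 (0 and 0; 652 at unadjusted p under 0.05), as with both covariates (0). Dnaja1 lost its call with upper-quartile factors (0.59), 2 groups (0.58) and 17 libraries (0.54). All 3 lost it with both covariates (Nr1d1 -1.37, Hsph1 1.00, Dnaja1 0.67) and the oligodendrocyte covariate (-1.42, 0.95 and 0.62). The cause was not tested.

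The labels do not say what the replicate numbers stand for, or whether same-numbered libraries shared a batch. Correlations of same-numbered libraries ran from -0.116 to 0.0845, and 1 of 7 pairs correlated best with its own number. With a replicate block 4 genes were called, 1 higher and 3 lower, with Hsph1 at 0.99 (adjusted p = 0.0627) and Dnaja1 at 0.54 (0.0904).

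Leaving out each library gave 1 to 15 calls (0 to 12 higher, 1 to 3 lower): 1 without Saline 1, 2, 3, 5 or 6 or Abstinence 1, 2 or 6, 6 without Saline 7 or Maintenance 6, 7 without Abstinence 5 and 15 without Saline 8. Log2 fold changes were -1.49 to -1.28 for Nr1d1, 0.85 to 1.12 for Hsph1 and 0.52 to 0.65 for Dnaja1. Of 2241 values of 59 other named genes, none called in edgeR, 2118 stayed uncalled, the others newly passed and 0 reversed. Of 1634 list medians 23 moved, 22 of them with a covariate or in the 17 libraries. With both covariates the medians of the monocyte, neutrophil and striatal neuron lists changed sign (0.58, 0.95 and -0.80).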
